A study of Mus musculus with 5 samples.

Results

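Runs of neighbouring restriction fragments with an intermediate methylation level were examined in primary CD8+ T cells of the mouse, the lymphocytes that kill infected or transformed cells. A fragment was called intermediate when 20 to 80% of all its CpG calls were methylated in the original, non-clonal population of cells. Fragments with at least 10 molecules with a call in all 3 libraries were put in order of their number, and a run was taken wherever 3 or more of them followed each other in steps of 3 or less and every one was intermediate. This gave 605 runs with 2058 fragments, out of 24292 intermediate fragments, 161264 fragments with that coverage and 513942 fragments with a call in any library. Because the population's level chose the members, that level is given below as a description and no difference from it is read as a result. The level in either clone, and the difference between the clones, were not used to choose them.

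The study set clonal cells against the population they came from, and asked how methylation varied between them. Naive T cells from the spleen of C57BL/6 mice were cultured with IL2, individual CD8+ cells were sorted with antibodies to CD3 and CD28, and single founder cells were grown into clones. Clone 1 and clone 2 are each the progeny of 1 cell after 15 cell divisions, with 2 replicates per clone, and the original population is 1 sample of the same primary cells. All groups share strain, cell type and culture medium, and none of the labels names a genotype or a treatment that sets the clones apart. The number of mice behind the cells is not given in the labels. The 2 replicates of a clone were deposited together in 1 file without a mark to separate them, so each group entered as 1 library, no value below has a spread between replicates, and each test compares libraries. Each library is summarised by its molecules, a molecule being 1 tag on 1 strand of 1 fragment. Clone 1 had 7013054 molecules with a call, clone 2 had 5567534 and the population had 5588357. The values are methylation calls without gene names, so the labelled cell type could not be set against marker genes.

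CpG methylation in mammals is copied to the new DNA strand after each replication by a maintenance enzyme, Dnmt1, which recognises sites methylated on a single strand, while Dnmt3a and Dnmt3b can methylate new sites and Tet enzymes start its removal. A level between the extremes in a cell population can arise when some molecules are methylated throughout and others not at all, as at imprinted genes or on an inactive X chromosome, or when single CpGs differ within a molecule. In a clone, the state of the founder's alleles is carried forward as far as copying is faithful, so a place where cells of the population differ can be shifted towards either extreme. The fragments studied here end at sites of MspI, an enzyme that cuts at CCGG, and consecutive numbers are read here as consecutive fragments. A run is therefore a stretch of several neighbouring fragments, each read on its own molecules.

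The molecules of a run show what was measured. In the patterns that follow, a filled circle is a methylated CpG, an open circle an unmethylated CpG and a dot a CpG with no call, in the order given in the deposited string. They were chosen because each set belongs to a run whose values are described further on. In the run that starts at fragment 759770, the commonest molecule of fragment 759772 in clone 1 was ·●●●●, on 14 of 32 molecules. In clone 2 it was ·○○○○, on 7 of 15 molecules, and the population held both, with ·○○○○ on 8 of 21 molecules and ·●●●● on 4. At fragment 1002274, which opens another run, clone 1 most often carried ●●●●●●●●●●●●·, on 6 of 22 molecules, clone 2 carried ○○○○○○○○○○○○·, on 9 of 27, and the population carried ○○○○○○○○○○○○· and ·○○○○○○○○○○○○ on 3 of 10 molecules each. The opposite order was seen at fragment 842088, where ·○○ led in clone 1 with 10 of 23 molecules, ●●· led in clone 2 with 8 of 27 and ○○· led in the population with 6 of 18. In another member the commonest molecule was mixed in every library. At fragment 721231, ●●●○○· was on 5 of 28 molecules in clone 1 and on 6 of 32 in clone 2, and ●●○○○· was on 3 of 23 in the population, so methylated and unmethylated CpGs stood on the same molecule.

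Most runs were short. Of the 605 runs, 449 held 3 fragments, 107 held 4, 28 held 5, 11 held 6 and 8 held 7, and 1 run each held 9 and 12 fragments. The runs gave 1453 neighbouring pairs, of which 842 lay 1 number apart, 381 lay 2 apart and 230 lay 3 apart. Members were richer in CpGs than other intermediate fragments. Their median was 6 CpGs with 25.9% at 10 or more, against a median of 4 and 6.68% for the 22234 intermediate fragments outside runs and a median of 5 and 17.8% for all covered fragments. Coverage was a median of 29 molecules per member in clone 1, 24 in clone 2 and 22 in the population, and the median counting standard error of a member's level was 4.66, 5.04 and 6.95 percentage points in that order. That error, like every standard error below, covers the counting of molecules alone.

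At the edges of the band the values ran on without a gap. Fragment 354226 was the lowest member, at 20% in the population from 33 molecules, and stood at 8% in clone 1 and 21.7% in clone 2. Fragment 450307 was the highest, at 80% in the population, with 95.2% in clone 1 and 87.1% in clone 2. Just outside, beside a run, fragment 732528 was at 2.37% in clone 1, 3.72% in clone 2 and 19.9% in the population, and fragment 1588742 was at 78.7%, 88.7% and 80.5%.

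The runs were not spread evenly over the fragment numbers. When covered fragments were put in classes of 5000 numbers, the share of intermediate ones changed most between the classes below and above number 1520000, a boundary found by least squares after the values had been seen. From that number up, 31.5% of 5282 covered fragments were intermediate and there were 88.2 members per 1000 covered fragments, against 14.5% of 155982 and 10.2 per 1000 below it. These highest numbers, up to 1593402, held 3.28% of the covered fragments but 466 members (22.6%) in 131 runs (21.7%). Members there had a median of 9 CpGs, against 5 in the other 1592 members. Neither range was uniform. The class from number 1040000, below the boundary, held 51 members in 364 covered fragments, with 34.9% intermediate. Above the boundary, the class from 1570000 held 0 members in 302 covered fragments, with 10.6% intermediate. The fragment numbers come without chromosomes here, so their place on the genome was not analysed, and the runs of both ranges are given apart where they differed.

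**Figure D1:**
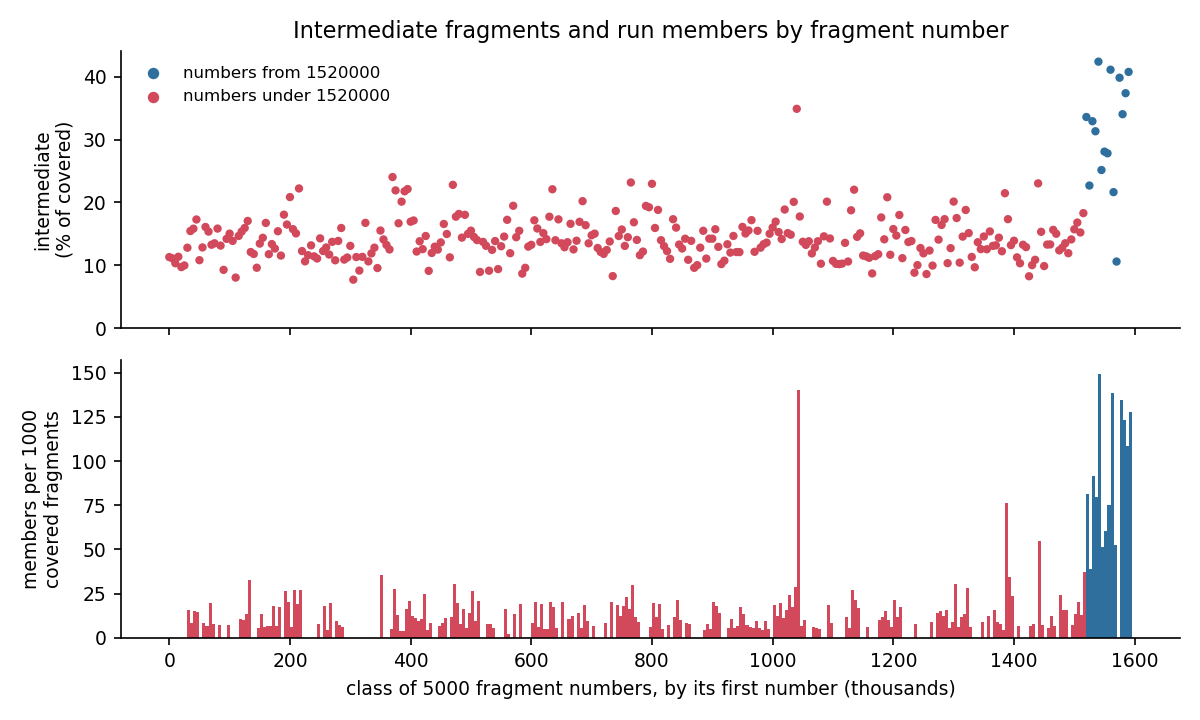
Share of covered fragments that were intermediate in the population (top, percent) and members of runs per 1000 covered fragments (bottom) in each class of 5000 fragment numbers, against the first number of the class. Classes from number 1520000 (blue) reached 42.4% intermediate, with a median of 32.9%, and those below it (red) had a median of 13.7%, with 1 class at 34.9%.

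In the clones, members mostly stayed between the extremes. The median level of a member was 56.8% in clone 1, 57.5% in clone 2 and 48.7% in the population. Members at 20 to 80% made up 73.7% in clone 1 and 73.9% in clone 2, those over 80% made up 20.3% and 20.2%, and those under 20% made up 6.03% and 5.93%. Among the highest numbers the medians were 44.4% in clone 1, 44.2% in clone 2 and 39.6% in the population, and 90.6% and 91.6% of members remained at 20 to 80% in clone 1 and clone 2. Among the other numbers the medians were 62.1%, 63.6% and 53.8%, and 68.7% of members remained in the band in either clone. Intermediate fragments outside runs also mostly stayed at 20 to 80%, with 63.2% in clone 1 and 60.7% in clone 2. Over all covered fragments these shares were 16.0% and 15.3%.

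Whole runs seldom reached an extreme together. Every fragment was at 20 to 80% in 265 runs (43.8%) of clone 1 and in 257 (42.5%) of clone 2. All fragments were over 80% in 26 runs of clone 1 and 25 of clone 2, and all were under 20% in 5 runs of either clone. A mixture was commoner: 213 runs of clone 1 and 229 of clone 2 held fragments over 80% beside others at 20 to 80%, and 74 and 75 runs held fragments under 20% beside others at 20 to 80%. Fragments over 80% and under 20% met in 1 run in 22 runs of clone 1 and 14 of clone 2. Among the highest numbers the band held the whole run in 94 of 131 runs (71.8%) of clone 1 and in 99 (75.6%) of clone 2, against 171 (36.1%) and 158 (33.3%) of the other 474 runs.

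The clones were compared with each other fragment by fragment, which the choice of members did not use. A molecule counted as methylated when more than 50% of its observed CpGs were, and the counts of such molecules were set against each other with Fisher's exact test (two-sided), adjusted by the Benjamini-Hochberg method over all 161264 fragments. Fragments were called when the adjusted p was below 0.05 and the share of methylated molecules differed by 20 points or more. Between clone 1 and clone 2, 385 of the 2058 members were called (18.7%), against a background of 4.19% over all covered fragments. In 196 members clone 1 was higher (background 1.91%) and in 189 it was lower (background 2.28%). Intermediate fragments outside runs were called at 15.2% (3382 of 22234) and fragments that were not intermediate at 2.19%. The share was 14.2% (66 of 466) among members of the highest numbers and 20.0% (319 of 1592) among the other members. Intermediate fragments outside runs were called at 12.1% (145 of 1199) in the highest numbers and 15.4% (3237 of 21035) in the others. The median counting standard error of members was also larger in the highest numbers. It was 6.85 points in clone 1 and 7.21 in clone 2, against 4.23 and 4.46 in the other numbers. Called members lay in 269 runs, and the remaining 336 runs had none.

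The calls of a run mostly fell in 1 direction when there were several. A single call stood in 175 runs, several calls in 1 direction in 68 and calls in both directions in 26. Every fragment was called in 1 direction in 6 runs. Without regard to calls, the difference clone 1 minus clone 2 had the same sign at every fragment in 199 runs (32.9%, Wilson 95% interval 29.3 to 36.7), positive throughout in 91 and negative throughout in 108. More fragments make 1 sign less likely by construction. The share was 37.0% in the 449 runs of 3 fragments and 21.2% in the 156 runs of 4 or more. The share that unrelated fragments would give was not computed, so these shares alone do not tell whether a difference was shared. The mean difference of a run spanned -64.2 to 89.5 points, and 93 runs had a mean of 20 points or more in either direction. Among the highest numbers 32 of 131 runs (24.4%, 17.9 to 32.4) had 1 sign, several calls fell in 1 direction in 5 runs and in both in 7. Among the other numbers 167 of 474 runs (35.2%, 31.1 to 39.6) had 1 sign, several calls fell in 1 direction in 63 runs and in both in 19, and all 6 runs with every fragment called were there. The Wilson intervals count runs as if they were independent draws and hold no counting error of molecules. Fragments of a run share their libraries and are not replicates, so these counts are a description.

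Neighbouring fragments of a run carried similar clone differences in the other numbers but hardly so in the highest ones. Over all 1453 neighbouring pairs, Pearson's r of the difference clone 1 minus clone 2 was 0.346, and 865 pairs (59.5%) had the same sign. In the highest numbers r was 0.07 over 335 pairs, with 50.4% of the same sign, and in the other numbers it was 0.400 over 1118 pairs, with 62.3%. Within the other numbers r was 0.551 in runs with a median of 10 or more CpGs per fragment (192 pairs), 0.407 with 5 to under 10 CpGs (546 pairs) and 0.296 with under 5 CpGs (380 pairs), while the same sign was shared by 62.0%, 64.1% and 59.7% of the pairs in that order. Neighbours can share the cut site between them, and without the first and last CpG of every fragment r was 0.266 in 449 runs. With molecules of 2 or more reads, which left 20 runs, it was 0.0785. The points of these correlations share their libraries, their depth range and often their CpG density, and they are given without a test.

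**Figure D2:**
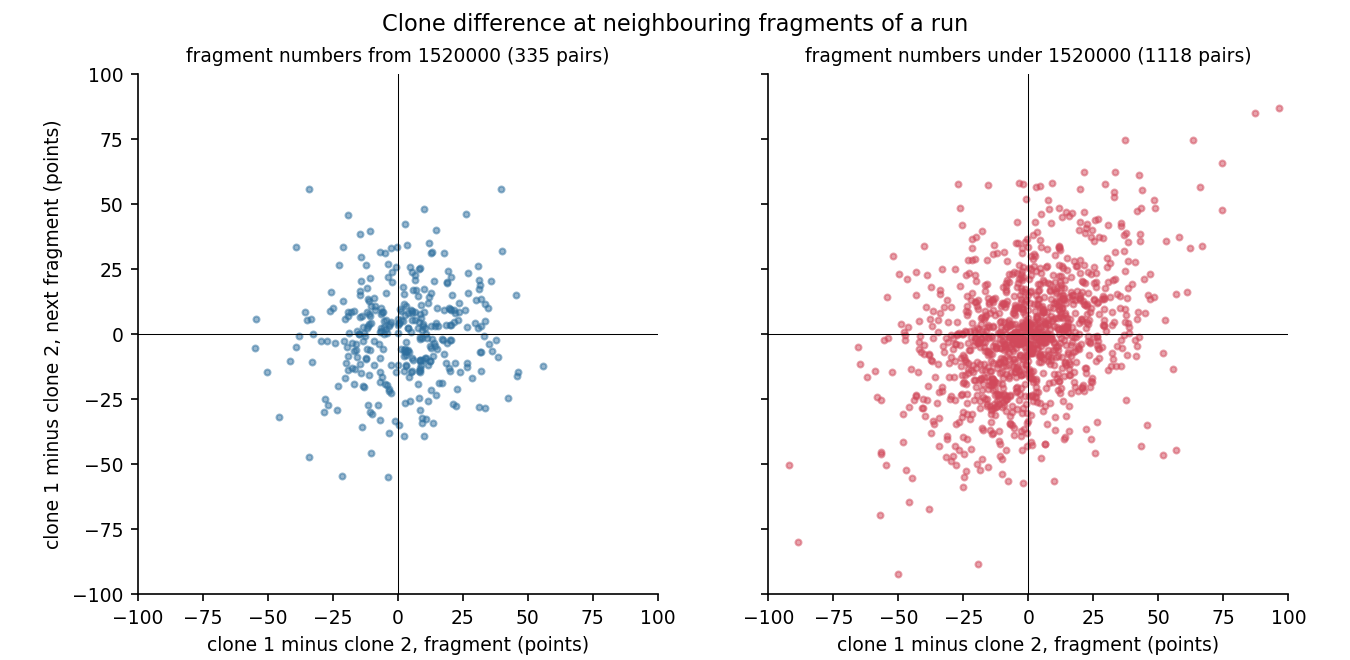
Difference in methylation level between clone 1 and clone 2 (percentage points) at a fragment of a run (horizontal) and at the next fragment of the same run (vertical), for runs with fragment numbers from 1520000 (left, 335 pairs) and under 1520000 (right, 1118 pairs). Each point is 1 pair of neighbours; the cloud on the right is drawn out along the rising diagonal (r = 0.400), the one on the left is nearly round (r = 0.07).

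The likeness faded within a few fragments. It was measured in all pairs of intermediate fragments at a given step in number, whether in runs or not. With a step of 1, r was 0.410 over 2121 pairs and 62.2% had the same sign. Fragments at a step of 1 can share the cut site between them, which those at larger steps cannot. The values by step were not computed without the first and last CpG, so the part of the shared site in the fading was not tested. At a step of 2 r was 0.278 (1256 pairs) and at a step of 3 it was 0.147 (1008 pairs). From 4 to 10 it was 0.03 with 51.0% of the same sign (5237 pairs), and from 301 to 1000 it was 0.0014 with 49.7% (311659 pairs). Where both fragments were called between the clones, the direction was the same in 94 pairs and opposite in 9 at a step of 1, the same in 56 and opposite in 14 at a step of 2, and the same in 24 and opposite in 11 at a step of 3. At steps of 4 to 10 these counts were 96 and 77, near to even. Within runs, pairs at steps of 1, 2 and 3 gave an r of 0.378, 0.274 and 0.206. Fragments that were not intermediate gave 0.189, 0.0502 and 0.0242 at steps of 1, 2 and 3, lower at every step. At a step of 1, with the counting variance taken out of the spread, r was 0.472 among intermediate fragments and 0.246 among the others.

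**Figure D3:**
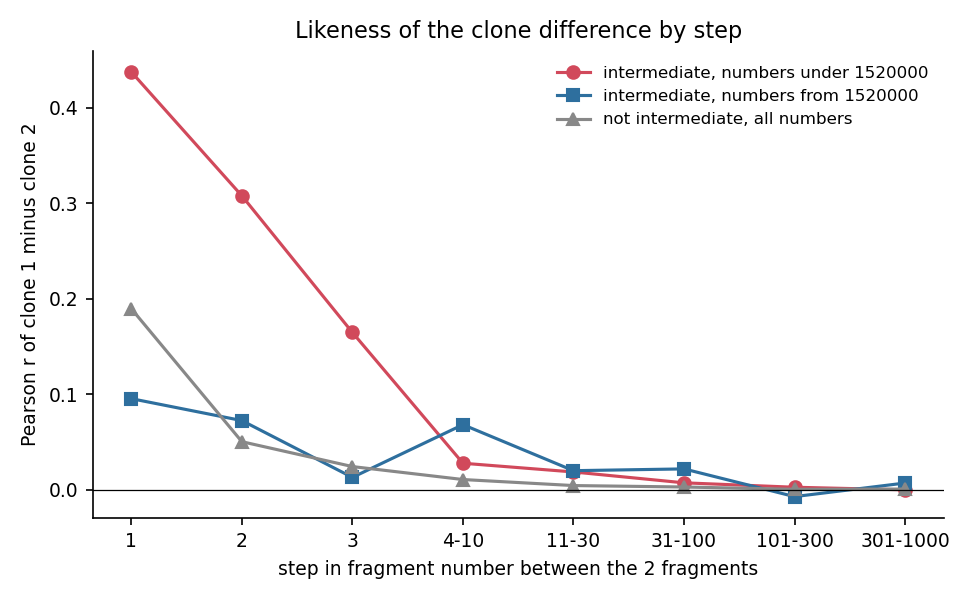
Pearson's r of the difference clone 1 minus clone 2 (vertical, no unit) between pairs of fragments at a given step in fragment number (horizontal), for intermediate fragments with numbers under 1520000 (red circles) and from 1520000 (blue squares) and for fragments that were not intermediate (grey triangles). The red line starts at 0.437 and is at 0.028 for steps of 4 to 10; the blue line stays under 0.1 at every step.

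Seen from 1 called fragment of a run, the others differed in the same direction more often than in the opposite one. In each of the 269 runs with a call, the called fragment with the lowest p of Fisher's exact test was set aside. Its median difference was 33.4 points in size. A choice by p favours wide differences, so nothing is read from the others being nearer to 0. Of the other 699 fragments in these runs, 442 (63.2%) had a difference of the same sign, with a median of 5.57 points in that direction. They were called in the same direction 88 times and in the opposite direction 28 times. Fragments 1 number away, which can share a cut site with the called one, had the same sign in 72.8% of 235 cases. Those 2 away had it in 60.5% of 177, those 3 away in 60.2% of 133 and those farther in 54.5% of 154. In the highest numbers the sign was shared in 53.1% of 145 cases, with 7 calls in the same direction and 9 in the opposite one, against 65.9% of 554 cases with 81 and 19 in the other numbers.

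The widest difference shared along a whole run was one in which clone 1 was higher. The runs named from here on were picked for the width or likeness of their values or for their length, so they show the range and not the usual size of a difference. The run from fragment 1002274 to 1002279 has 3 covered fragments with 13, 8 and 11 CpGs. Fragment 1002274 was at 97.2 ± 1.04% in clone 1, 0.680 ± 0.469% in clone 2 and 22.3 ± 12.8% in the population, with the counting standard error after each level. Fragment 1002276 was at 99.2 ± 0.797%, 12.1 ± 3.14% and 34.6 ± 9.46% in the same order, and fragment 1002279 at 93.5 ± 2.47%, 8.51 ± 2.08% and 65.3 ± 13.5%. The clones lay at opposite ends in every fragment, and the population lay between them. All 22, 20 and 13 molecules of clone 1 were methylated and none of the 27, 14 and 15 of clone 2 was, where a count of 0 allows a share of up to 11.1%, 21.4% and 20.0%. Fisher's exact test gave adjusted p values of 3.09e-11, 2.65e-07 and 5.76e-06.

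In the run of 4 fragments from 759770 to 759775, clone 2 was near 0 while clone 1 kept both kinds of molecule. Clone 1 was at 66.1 ± 7.60%, 76.2 ± 7.24%, 70.2 ± 7.85% and 61.7 ± 8.74% along the run, clone 2 at 2.89 ± 1.42%, 1.69 ± 1.69%, 4.19 ± 1.86% and 5 ± 2.66%, and the population at 32.2 ± 8.47%, 25.9 ± 9.48%, 36.2 ± 11.3% and 42.1 ± 9.51%. Methylated molecules numbered 18 of 30, 24 of 32, 19 of 26 and 12 of 23 in clone 1 and 0 of 21, 15, 21 and 16 in clone 2, which allows up to 14.3%, 20.0%, 14.3% and 18.8%. The 4 adjusted p values of Fisher's exact test were 0.000317, 8.22e-05, 1.76e-05 and 0.0132. The patterns of fragment 759772 given above come from this run: its molecules in clone 1 were mostly methylated or unmethylated throughout. In the runs from 732146, 1177976 and 209844, the next in width, clone 1 was also higher at every fragment, with run means of 81.9%, 76.3% and 76.8% against 28.8%, 31.6% and 36.9% in clone 2. All 3 fragments of the run from 732146 were called, 3 of 4 in the run from 1177976 and 2 of 3 in the run from 209844.

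Runs in which clone 1 was lower held an extreme in either clone. From 842086 to 842089 clone 1 was at 29.8 ± 4.63%, 0% and 32.7 ± 5.83%, clone 2 at 80 ± 3.82%, 92.2 ± 3.04% and 83.0 ± 3.27%, and the population at 53.2 ± 9.16%, 20.6 ± 6.08% and 62.5 ± 8.08%. Methylated molecules were 1 of 13, 0 of 23 (which allows up to 13%) and 2 of 16 in clone 1 and 13 of 13, 27 of 27 and 25 of 28 in clone 2 (adjusted p of Fisher's exact test 0.000261, 1.57e-11 and 7.53e-05). The middle fragment went farthest towards 0 in clone 1 and was also the lowest of the 3 in the population. From 179186 to 179188, 3 fragments with 2 or 3 CpGs each, clone 2 was at 100% on all 39, 30 and 13 molecules, whereas clone 1 was at 80.4 ± 3.82%, 11.5 ± 6.39% and 20 ± 10.7%, and all 3 were called. At fragments 179187 and 179188 no molecule had 2 or more calls in any library. The 3 numbers are consecutive and neighbours can share a cut site, so the 3 calls may in part read the same CpGs. In the runs from 129748, 1028018 and 1282286 the run means were 29.7%, 18.6% and 43.9% in clone 1 and 74.8%, 61.8% and 86.8% in clone 2, with 2 of 3 fragments called in each. The uncalled fragment of the run from 1282286 was nearly alike in the clones, at 95.1% in clone 1 and 97.2% in clone 2, while its next neighbour stood at 11.5% and 68.6%.

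**Figure D4:**
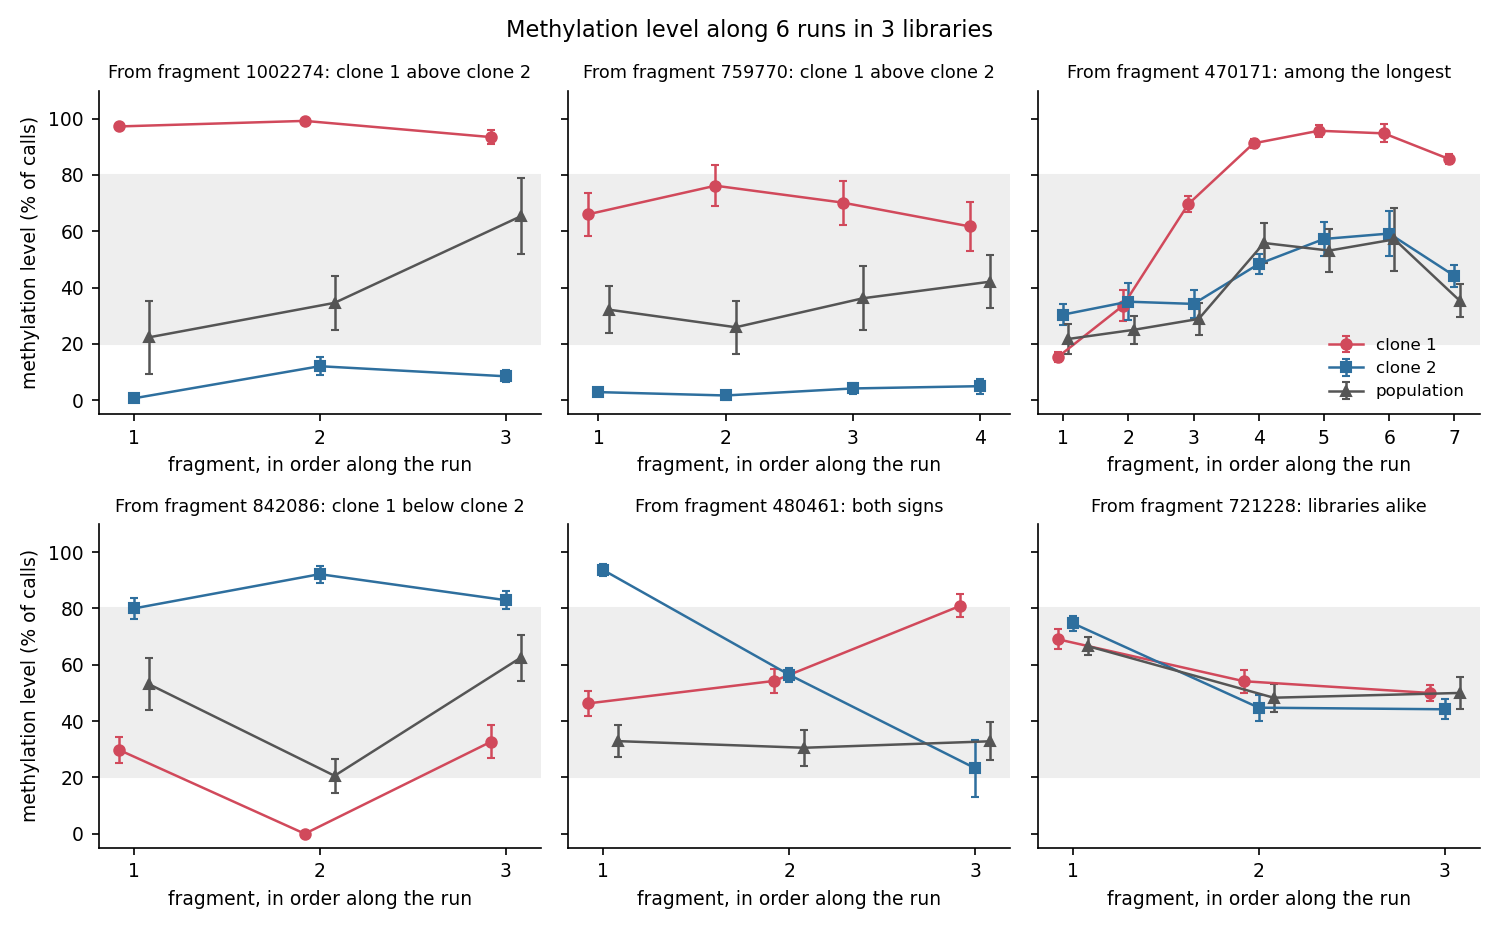
Methylation level (percent of CpG calls, with the counting standard error) at each fragment along 6 runs in clone 1 (red circles), clone 2 (blue squares) and the population (grey triangles); the shaded band is 20 to 80%. The clones are apart at every fragment in the runs from 1002274, 759770 and 842086, separated from the third fragment onward in the run from 470171, in opposite order at the ends of the run from 480461, and within 9.39 points of each other in the run from 721228.

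A change could also begin within a run. The run from 470171 to 470180 is 1 of the 8 runs with 7 fragments, of which the 3 with the most molecules were named. At its first fragment clone 1 was at 15.4 ± 1.66% and clone 2 at 30.4 ± 3.72%, and at the next they were at 33.6 ± 5.55% and 35 ± 6.54%. Over the other 5 fragments clone 1 was at 69.6%, 91.2%, 95.7%, 94.8% and 85.6%, clone 2 at 34.2%, 48.4%, 57.3%, 59.2% and 44.2%, and the population at 28.9%, 55.8%, 53.2%, 57.1% and 35.4%. The first fragment was called lower in clone 1 (adjusted p = 0.0473), the last 4 were called higher (adjusted p = 2.35e-06, 0.0276, 0.00633 and 0.000105) and the third was not called (adjusted p = 0.0764), each by Fisher's exact test. The difference thus had 1 sign and 35.4 to 42.8 points over 5 fragments and the opposite sign, 15.1 points, at the edge. At fragment 470175, ·●●●●●●● led in clone 1 with 10 of 38 molecules, whereas ·○●●○○○○ led in clone 2 with 13 of 43.

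In the 2 longest runs clone 1 was lower than clone 2 at most fragments, and few of them were called. The run from 1389109 to 1389122 has 12 fragments with 144 CpGs, and it spanned 25.1 to 84.1% in clone 1, 24.0 to 88.2% in clone 2 and 20.7 to 71.0% in the population. Clone 1 was lower at 9 of its 12 fragments. Only 2 were called, 1389113 at 55.1% in clone 1 and 86.6% in clone 2 (35.4% in the population) and 1389114 at 41.3% and 81.4% (23.3% in the population), and they are neighbours. Many fragments of this stretch had 100 or more molecules in a library, up to 151, near the 154 that 77 tags allow on both strands, so separate molecules may have been counted as 1. In the run of 9 fragments from 1389147, clone 1 was lower at 8. It was lower by 27.6 points at 1389156 and by 47.5 points at 1389158, the fragments called, while fragment 1389157 between them differed by 4.73 points the other way. The 7 fragments of the run from 1389101 had no call between the clones, although clone 1 was lower at 6 of them, with clone 1 at 25.6 to 76.6% and clone 2 at 24.6 to 77.5%. The run from 1580131, in the highest numbers, held 1 call in each direction: fragment 1580133 was at 85.2% in clone 1 and 39.3% in clone 2, and fragment 1580134 at 39.7% and 55.7%.

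Wide differences in opposite directions also met inside a run, up to 67.3 points at a fragment in the 5 runs named for them. In the run from 480461, clone 1 was at 46.3 ± 4.42%, 54.3 ± 4.35% and 81.0 ± 4.06%, clone 2 at 93.7 ± 2.19%, 56.5 ± 2.53% and 23.3 ± 10.1%, and the population at 32.9 ± 5.74%, 30.5 ± 6.36% and 32.8 ± 6.82%. The clones thus changed places along 3 fragments that were nearly level in the population, and the outer fragments were called in opposite directions (adjusted p of Fisher's exact test 0.000297 and 0.0452). In the run from 584458, fragment 584459 was at 96.9% in clone 1 and 40% in clone 2, and fragment 584461 at 44.6% and 89.1%. In the run from 202407 the difference went in 4 fragments through 30.8, -13.7, -38.1 and -67.3 points. The runs from 375247 and 1564517 likewise spanned -46.3 to 51.6 and -34.1 to 55.9 points, with 1 called fragment each.

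At the other end, 5 runs were the most alike in all 3 libraries, and their levels differed widely from run to run. In the run from 721228, clone 1 was at 69.1 ± 3.54%, 54.2 ± 4.07% and 50 ± 2.84%, clone 2 at 74.8 ± 2.63%, 44.8 ± 4.62% and 44.2 ± 3.50%, and the population at 66.7 ± 3.36%, 48.3 ± 4.91% and 50 ± 5.73%. The step down after the first fragment was present in each library. In the run from 1578341 no pair of libraries differed by more than 7.69 points at any fragment, and its mean was 70.4% in clone 1, 70.3% in clone 2 and 69.2% in the population. The runs from 1558967, 1536176 and 730553 had means of 30.9 to 40.5% in all libraries, and 3 of the 5 runs lie in the highest numbers. That they are alike follows from the choice.

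Reads from the complementary strands allowed the difference to be measured on each strand apart. Both strands of the same double-stranded DNA may be among them, which was not tested. In the 1508 members with at least 5 molecules on both strands in each library, clone 1 minus clone 2 on the plus strand and on the minus strand of the same fragment had r = 0.557, and 68.7% had the same sign. Between neighbouring fragments, r was 0.252 when the difference was read on opposite strands and 0.244 when it was read on 1 strand (917 pairs). In the highest numbers r was 0.351 within a fragment (340 members) but 0.0368 between neighbours on opposite strands (212 pairs), and in the other numbers it was 0.600 (1168 members) and 0.300 (705 pairs). In both ranges, then, a fragment's difference returned on its other strand more closely than at its neighbour.

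Each clone also differed from the population along the runs, but the population's level chose the members and both comparisons share its library, so nothing is read from the following counts. Against the population, clone 1 was called at 194 members (144 higher and 50 lower, 9.43%) in 156 runs, where the background over all fragments was 1.79% (0.965% higher and 0.827% lower). Clone 2 was called at 145 members (113 higher and 32 lower, 7.05%) in 113 runs, with a background of 1.44% (0.897% higher and 0.54% lower). The mean over runs was 57.3% in clone 1 and 57.9% in clone 2 against 50.2% in the population, 7.15 and 7.74 points above it. In the 20 runs found with molecules of 2 or more reads, they were 13.9 and 13.4 points above it. The change had 1 sign at every fragment in 257 runs of clone 1, higher in 219 and lower in 38, and in 269 runs of clone 2, higher in 227 and lower in 42. Between neighbours r was 0.374 for clone 1 and 0.354 for clone 2, and several calls in 1 direction stood in 26 runs of clone 1 and 24 of clone 2 against calls in both directions in 3 and 1.

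With members chosen on 1 strand and the change measured on the other, the choice and the measurement rest on reads of separate strands. Those come from the same library and cells, and may come from the same double-stranded DNA, so these values too are a description. Clone 1 was then 6.44 points (251 runs, minus strand) and 6.90 points (247 runs, plus strand) above the population on average, and clone 2 was 7.01 and 8.25 points above it. The neighbours' r was 0.231 and 0.307 for clone 1 and 0.192 and 0.278 for clone 2.

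The molecules showed how the intermediate levels were made up. The shares of wholly methylated and wholly unmethylated molecules move with the level, which chose the members in the population, so the population's values stand beside the clones' as a description. Among molecules with 2 or more calls, 25.6% were methylated at every call in clone 1, 26.0% in clone 2 and 19.7% in the population, averaged over runs. Unmethylated at every call were 17.3%, 16.0% and 22.0%, and the rest, 57.2%, 58.1% and 58.3%, were mixed. Mixed molecules were thus the commonest kind in all 3 libraries. A single differing call makes a molecule mixed, so this share does not tell how far the CpGs of a molecule went together. Members of the highest numbers had more wholly unmethylated molecules, 31.0% in clone 1, 31.4% in clone 2 and 36.8% in the population, against 13.4%, 11.7% and 17.9% in the other numbers. Mixed molecules were 55.3%, 55.9% and 51.6% in the highest numbers and 57.7%, 58.7% and 60.1% in the other numbers. Outside runs, wholly unmethylated molecules were 11.8%, 10.7% and 14.9% and mixed ones 53.5%, 52.1% and 56.0%. These shares move with the number of calls, which averaged 5.47, 5.59 and 5.43 per molecule in the runs and 3.31, 3.35 and 3.32 outside them.

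The variance of the calls within a fragment was split into a part that the CpGs of a molecule share and a part that lies between CpG positions, each as a share of the whole. For the position part, counting error was taken out of the level of each position but not out of the fragment's level. That part is therefore somewhat too low and can fall below 0. The shared part is high where molecules are methylated or unmethylated throughout, and the position part is high where some CpGs are methylated on most molecules and others on few. The median shared part of members was 8.04% in clone 1, 6.74% in clone 2 and 22.0% in the population, and the median position part was 21.3%, 21.7% and 4.09%. These parts too were computed from calls that chose the members in the population, so nothing is read from the difference between the clones and the population. In the highest numbers the shared part was far greater, 40.5% in clone 1, 39.0% in clone 2 and 46.9% in the population, with position parts of 17.4%, 15.9% and -0.216%. In the other numbers it was 3.50%, 2.15% and 15.6%, and outside runs 0.924%, 0% and 10.8%. The shared part was itself alike in neighbours of a run, with r = 0.524 in clone 1, 0.503 in clone 2 and 0.595 in the population. These values pool both ranges, which differ in the shared part, and r within a range was not computed. In all 3 libraries the shared part was thus greater in members of the highest numbers than in the other members. It was over 50% in 36.2% of the former in clone 1, 35.6% in clone 2 and 40.5% in the population. Among the other members these proportions were 8.88%, 6.57% and 10.1%.

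**Figure D5:**
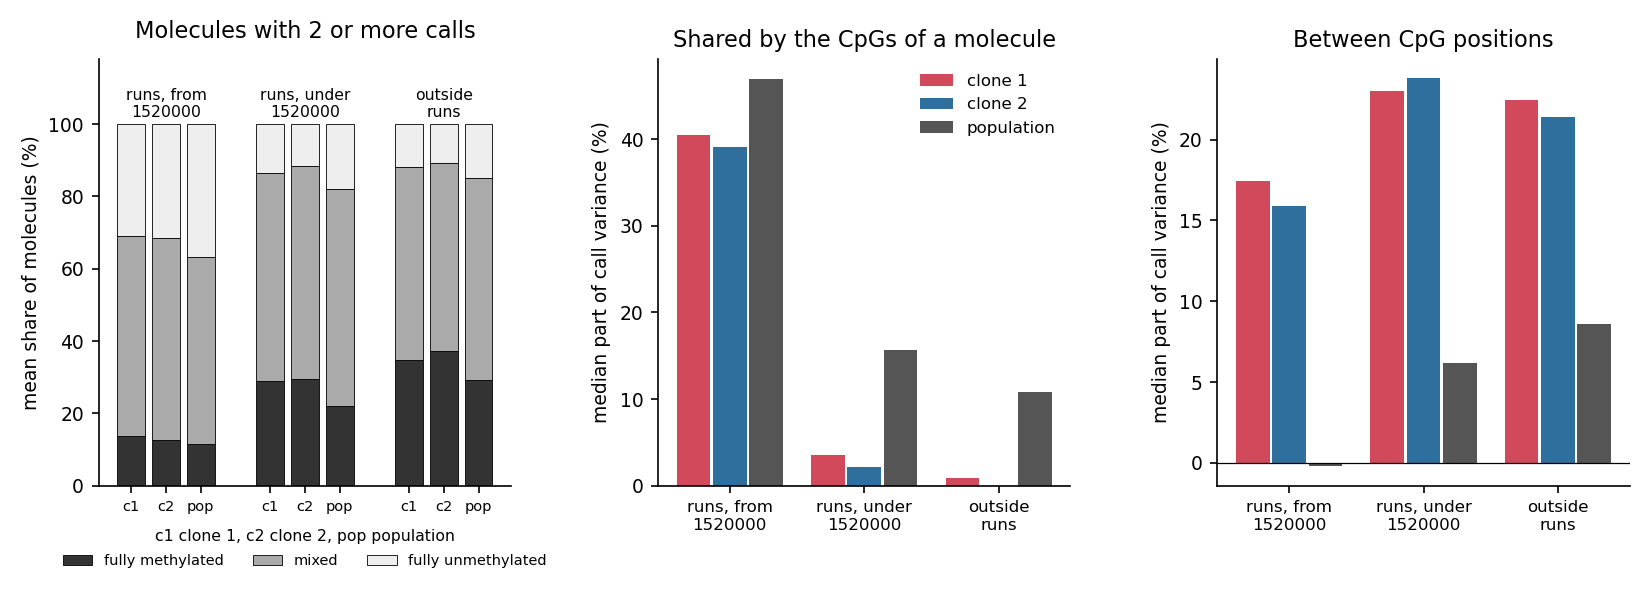
Left, mean share (percent) of molecules with 2 or more calls that were fully methylated, mixed or fully unmethylated; middle and right, median part of the call variance (percent) shared by the CpGs of a molecule and lying between CpG positions. Bars show clone 1, clone 2 and the population in members with numbers from 1520000, in members with lower numbers and in intermediate fragments outside runs; the shared part is 39.0 to 46.9% in the first set and at most 15.6% in the others.

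Outside the highest numbers, the correlation between neighbours differed with this measure, but the share of pairs with the same sign did not follow the same order. There, neighbours that both had a shared part of 20% or more in the population gave r = 0.559 for clone 1 minus clone 2 (237 pairs), those both over 50% gave 0.786 (65 pairs), and those both under 20% gave 0.296 (392 pairs). The same sign was shared by 68.4%, 64.6% and 60.5% of these pairs in that order. The proportion of members called between the clones was 24.3% where the shared part was over 50%, 23.1% at 20 to 50% and 18.9% under 20%. In the highest numbers, neighbours both at 20% or more gave r = 0.0209 with 50.7% of the same sign (272 pairs) and those both over 50% gave 0.0396 with 50% (68 pairs), and only 5 pairs were both under 20%. Calls there were made at 10.3% of members with a shared part over 50%, against 16.1% at 20 to 50% and 9 of the 36 members (25%) under 20%. Clone 1 and clone 2 stayed at 20 to 80% in 94.6% and 95.1% of the 185 members of the highest numbers with a shared part over 50%, and in 67.6% and 70.3% of the 148 such members in the other numbers.

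Fragments beside the ends of the runs were also compared between the clones. Among covered fragments within 3 numbers of an end, 103 were under 20% in the population and 158 were over 80%. The first kind had medians of 13.9% in clone 1, 14.3% in clone 2 and 10.6% in the population, and the difference clone 1 minus clone 2 correlated with that of the nearest member at r = 0.417, with 58.1% of the same sign (105 pairs). The second had medians of 93.6%, 95.3% and 91.0% and r = 0.198, with 53.2% of the same sign (158 pairs). Calls between the clones were made at 9.71% and 6.33% of them, between the background of 4.19% and the 18.7% of the members.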

How the data were processed

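DNA methylation was measured in 5 samples by bisulfite sequencing of MspI fragments ligated to a library of molecular tags, per the labels' protocols. Per the submitters' processing notes, Bismark and mouse build mm9 were used; the version, filters and joining of replicates were not given in the sources used here. The deposited counts of reads per tag are not normalized. Each line gives a fragment number, strand, tag, a string of deposited CpG calls (0, 1 or none) and that read count. The whole-number last column is not explained by the authors and was not used. Levels, molecule counts and tests were computed from these strings with Python 3.11.15, pandas 2.3.3, numpy 2.4.6 and scipy 1.17.1, counting every tag on a strand once whatever its reads. Alternatives changed coverage, step, band, run length, strand, reads per tag and CpGs. The call procedure and the correlation were tested on simulated data. Named runs are the 5 longest (ties by most molecules, so 3 of the 8 runs of 7 fragments), the 5 widest per direction with 1 sign, the 5 most alike and the 5 widest with both signs. The members and these choices were made with earlier results of these data known. Correlations between neighbours count each pair in both orders.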

Additional observations from a re-analysis of the deposited data

How the results depend on the processing

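No paired analysis was possible because the 2 replicates of a clone were deposited in 1 file and the population has 1 sample; for the same reason no replicate could be left out. The 3 alternatives chosen after seeing the data left out members over 100 molecules, numbers from 1520000, or the first and last CpG of each fragment. Of 153 values under 16 settings, 80 stayed within the limits set for them and 73 moved. Counts and shares cannot change sign, and none of the r values or mean differences from the population did. Beside each count stands the number of runs, since most settings change the members. Calls between clone 1 and clone 2 (385 in 605 runs), clone 1 and the population (194) and clone 2 and the population (145) were 67, 36 and 39 with at least 20 molecules (86 runs), 152, 83 and 70 with steps of 1 (232), 680, 343 and 270 with steps of 10 or less (1067), 161, 89 and 54 with a band of 30 to 70% (221), 152, 72 and 39 in runs of 4 or more (156), 227, 107 and 91 with 4 or more CpGs (371), and 6, 1 and 11 with molecules of 2 or more reads (20). They were 59, 15 and 14 on the minus strand of members chosen on the plus strand (251) and 57, 11 and 10 the other way round (247). The share of all fragments called between the clones (4.19%) was 6.40% with at least 20 molecules, 1.16% with 2 or more reads, 2.03% on the minus strand, 2.08% on the plus strand and 2.71% with 4 or more CpGs. Without strands over 25 molecules, clone 2 had 83 calls against the population.

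Runs with 1 sign (32.9%) were 29.3% with at least 5 molecules, 38.4% with steps of 1, 26.1% with steps of 10 or less, 21.2% in runs of 4 or more, 20.0% with 2 or more reads and 27.1% and 28.3% on the minus and plus strand. The neighbours' r (0.346) was 0.259 with at least 20 molecules, 0.233 with steps of 10 or less, 0.0785 with 2 or more reads, 0.150 and 0.213 on the minus and plus strand, 0.400 without the highest numbers and 0.266 without the first and last CpG. The mean of clone 1 minus the population (7.15 points) was 7.90 with steps of 1, 6.61 with steps of 10 or less, 8.27 in runs of 4 or more, 13.9 with 2 or more reads, 6.44 on the minus strand, 6.46 without strands over 25 molecules and 6.70 without the first and last CpG. That of clone 2 (7.74) was 7.05 with at least 20 molecules, 8.61 with steps of 1, 5.94 with the narrower band, 6.07 in runs of 4 or more, 7.13 with levels from majority molecules, 13.4 with 2 or more reads, 7.01 and 8.25 on the minus and plus strand, 7.10 with 4 or more CpGs and 8.57 without the highest numbers. Mixed molecules in clone 1, clone 2 and the population (57.2%, 58.1% and 58.3%) were 52.9%, 53.8% and 53.8% with majority molecules, 43.5%, 49.9% and 47.7% with 2 or more reads and 62.0%, 63.3% and 61.5% with 4 or more CpGs. Clone 1 had 59.3% on the plus strand, clone 2 had 61.3% with the narrower band, 60.8% in runs of 4 or more and 55.6% without the first and last CpG, and the population then had 55.6%. Fewer runs under stricter settings lower the counts by construction, and longer runs lower the share with 1 sign. Other causes were not tested.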

Other observations

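Several runs lay near each other. Where runs separated by 30 numbers or less were joined, 24 groups of 2 or more runs held 56 runs. The largest held 6 runs with 37 members between fragments 1389101 and 1389163, and the means of its runs averaged 40.4% in clone 1, 49.8% in clone 2 and 32.8% in the population. Clone 1 was lower than clone 2 in the mean of all 6, by 2.76 to 15.6 points. Members with over 100 molecules in a library numbered 30 in 7 runs, and 29 of them were in this group. The part that merged tags play in their levels was not tested.

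Levels themselves were alike along runs. Between neighbouring members r of the level was 0.440 in clone 1, 0.449 in clone 2 and 0.402 in the population. In the highest numbers it was 0.352, 0.273 and 0.351 in that order, and in the other numbers 0.414, 0.424 and 0.353. A run spanned a median of 31.3, 30.8 and 24.4 points from its lowest to its highest fragment. The share of mixed molecules was also alike in neighbours, with r = 0.279 in clone 1, 0.295 in clone 2 and 0.395 in the population. These last values pool both ranges of numbers.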
